A study of Mus musculus with 2 samples.

Results

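Ltf, Camp, Ngp, Lcn2, Chil3, Mmp8, Mmp9, Retnlg, S100a8 and S100a9, 10 genes for proteins of neutrophil specific and gelatinase granules and of the calprotectin complex, were followed through neutrophil maturation in single-cell RNA data from mouse bone marrow. They were taken by symbol from the 32285 genes of the count matrices, and all 10 members were found. The first library came from a WT mouse (Ddx41 fl/fl without VavCre, with wild-type cGas) and the other from a DKO mouse (VavCre:Ddx41 fl/fl, cGAS-/-), both 2 months old. VavCre deletes floxed Ddx41, an RNA helicase gene, in blood-forming cells, while the cGAS loss is in all cells. Both mice carried the floxed Ddx41 allele, and the DKO mouse differed from the control in both genes at once, so the effect of each gene cannot be told apart. Cells were flushed from bone marrow with PBS and captured with the Chromium Single Cell 3' v3 kit, which counts unique molecular identifiers (UMIs), 1 per captured RNA molecule.

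Neutrophils fill their granules in order. Promyelocytes make the azurophil (primary) granules, myelocytes and metamyelocytes make the specific (secondary) granules, and band and segmented cells make the gelatinase (tertiary) granules, so that the genes transcribed at a given step decide what a granule holds. Mature neutrophils transcribe few of the early granule genes but keep their proteins. Lactoferrin (Ltf) binds iron, cathelicidin (Camp) is the precursor of an antimicrobial peptide, Ngp is a cystatin-related granule protein, lipocalin 2 (Lcn2) binds bacterial siderophores, and Chil3 encodes a chitinase-like lectin. Mmp8 is neutrophil collagenase, Mmp9 is gelatinase B, and Retnlg is a resistin-like secreted protein of neutrophils. S100a8 and S100a9 form calprotectin, a calcium- and zinc-binding heterodimer that is mostly cytosolic. The members are described below as specific granule genes (Ltf, Camp, Ngp, Lcn2, Chil3), gelatinase granule genes (Mmp8, Mmp9, Retnlg) and calprotectin genes (S100a8, S100a9).

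By GENCODE M21 (GRCm38), all 10 members are protein coding. Ltf, Camp and Ngp lie on a stretch of chromosome 9, with Camp (ENSMUSG00000038357) at chr9:109847379-109849617, Ngp (ENSMUSG00000032484) at chr9:110419747-110423012 and Ltf (ENSMUSG00000032496) at chr9:111019271-111042767. Camp and Ngp are 570 kb apart, and Ngp and Ltf 596 kb. Mmp8 (ENSMUSG00000005800) lies far from them on the same chromosome, at chr9:7558456-7568485. S100a8 (ENSMUSG00000056054, chr3:90668978-90670035) and S100a9 (ENSMUSG00000056071, chr3:90692632-90695721) are neighbours with 22.6 kb between them. Chil3 (ENSMUSG00000040809) is at chr3:106147554-106167564, Lcn2 (ENSMUSG00000026822) at chr2:32384633-32388252, Mmp9 (ENSMUSG00000017737) at chr2:164940780-164955850 and Retnlg (ENSMUSG00000022651) at chr16:48872621-48874496.

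Start regions are given for the 5 members whose 150 bases before the RefSeq start (GRCm38.p6) overlapped annotated exons by at most 30 bases. They were not chosen by how the genes moved. Each runs 5′ to 3′ on the strand of the gene and ends at the start site, except that Ltf stops before the 21 bases that lie in an exon. Capitals mark the letters TTGCNNAA or their reverse complement TTNNGCAA, a core of C/EBP sites, GAGGAA or TTCCTC, a core of PU.1 sites, and TATAAA or TTTATA. C/EBP epsilon and PU.1 are transcription factors of granulocyte development.
Ltf, chr9:111019142-111019270, plus strand: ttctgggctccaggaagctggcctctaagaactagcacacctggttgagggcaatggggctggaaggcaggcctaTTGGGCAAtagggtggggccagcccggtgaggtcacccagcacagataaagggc
Chil3, chr3:106167565-106167714, minus strand: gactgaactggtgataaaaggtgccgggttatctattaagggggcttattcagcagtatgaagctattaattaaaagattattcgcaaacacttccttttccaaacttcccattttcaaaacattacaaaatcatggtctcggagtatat
Mmp8, chr9:7558279-7558428, plus strand: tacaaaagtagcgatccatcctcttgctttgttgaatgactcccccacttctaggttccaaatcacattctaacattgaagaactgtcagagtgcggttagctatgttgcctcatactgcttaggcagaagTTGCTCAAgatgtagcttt
Retnlg, chr16:48872458-48872607, plus strand: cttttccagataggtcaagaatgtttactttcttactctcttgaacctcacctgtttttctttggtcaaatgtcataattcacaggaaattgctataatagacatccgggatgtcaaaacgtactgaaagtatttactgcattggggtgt
S100a9, chr3:90695722-90695871, minus strand: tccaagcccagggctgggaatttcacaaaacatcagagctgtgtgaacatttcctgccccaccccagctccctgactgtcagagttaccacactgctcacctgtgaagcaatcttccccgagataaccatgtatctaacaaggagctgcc

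The C/EBP letters were found in 3 of the 9 members with a promoter entry, Ltf, Ngp and Mmp8, and in 5.47% of all 32817 promoter windows of the same length. The PU.1 letters were in Lcn2 and S100a8 and in 14.5% of all windows, and the TATA letters were in S100a8 and in 7.58% of all windows, the S100a8 pair lying side by side. Of the 150 bases of a window, 61 of Ngp, 97 of Lcn2, 93 of S100a8 and 150 of Camp lie in annotated exons of these genes. A match in such a window can thus lie within an exon. Both strands were searched. A match is a description of the letters and not a bound site.

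The WT library held 18726 cells with 119239857 UMIs and the DKO library 13719 cells with 114664975 UMIs, with medians of 4873 and 6900 UMIs per cell, and 75 cell barcodes occurred in both libraries. Ddx41 had 446 UMIs in WT and 186 in DKO cells of the 4 neutrophil stages, a log2 ratio of DKO over WT of -1.25 (-1.51 to -1.002), and Cgas had 367 and 273 UMIs, a log2 ratio of -0.42 (-0.65 to -0.19). Pooled over the 4 stages, both targeted genes were lower in DKO cells but neither was at 0. For Cgas the intervals included 0 in the stages with most of its UMIs. It was at -0.06 (-0.45 to 0.30) in the azurophil stage (170 WT UMIs) and -0.20 (-0.52 to 0.12) in the proliferating early stage (166). In the immature and mature stages it was at -1.74 and -1.25, on 16 and 15 WT UMIs. A 3' count can read RNA outside a deleted part, so it checks the labels only in part. Each genotype is 1 library from 1 mouse, so no test between genotypes exists, the ratios describe these libraries, and the bracketed 95% intervals cover counting error only.

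Cells were clustered without the 10 members, Ddx41 and Cgas, and neutrophil stages were named from marker genes. The azurophil stage (Elane, Mpo, Prtn3; 361 WT and 160 DKO cells) came first, followed by a proliferating early stage (Fcnb, Cebpe, Top2a; 315 and 279 cells), an immature stage (Cd177, Itgb2l, Abca13; 1346 and 1104 cells) and a mature stage (Cxcr2, Il1b, Csf3r; 1418 and 1733 cells). Elane stood at 14888 CPM in WT azurophil-stage cells and 30.8 CPM in WT mature cells, and Cxcr2 at 8.17 and 1284 CPM. Both are among the genes that named the stages, so this describes the naming and is no check of it. Sub-clusters 1 (led by Nup210l and Orm1), 8 (led by hemoglobin genes) and 9 (led by C1q genes), 406 WT and 272 DKO cells in all, stayed unnamed and entered no stage, and sub-cluster 7 (419 and 135 cells) was monocytic. Levels are given as CPM, the UMIs of a gene scaled to all UMIs of the cells named, so that 1% of the UMIs is 10000 CPM, and as 1 UMI is 1 molecule they need no scaling by gene length.

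Together the 10 members supplied 11.8% of the UMIs of WT azurophil-stage cells, 35.3% in the proliferating early stage, 34.3% in the immature stage and 17.7% in the mature stage. The DKO shares were 9.64%, 31.8%, 30.8% and 15.8%, lower than the WT share at every stage. Median UMIs per cell fell from 19790 in the azurophil stage to 2560.5 in the mature stage in WT and from 25544 to 3238 in DKO, so a like CPM stands for fewer molecules per cell in later stages.

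From the azurophil to the proliferating early stage, all 10 members were at least 2-fold higher in both libraries, where 8.17% of the 6599 genes tested were 2-fold higher and 18.7% 2-fold lower in both. The specific granule genes rose most in Ltf, from 779 to 7718 CPM in WT and from 410 to 7147 CPM in DKO, 9.90-fold and 17.4-fold. Camp went from 22280.5 to 58316 CPM in WT and from 19513 to 56361 CPM in DKO, and Ngp from 8434 to 37392 and from 5530 to 32967 CPM. Camp was thus already at 2.23% of all UMIs in the azurophil stage of WT, whereas Ltf was at 0.0779%. Lcn2 went from 2376 to 13198 CPM in WT and from 1193 to 8901 CPM in DKO. Chil3 went from 1955 to 8949 CPM and from 1205 to 7375 CPM. The calprotectin genes started highest of the 10 members, S100a8 at 34714 CPM in WT and 30956 in DKO and S100a9 at 47699 and 37527, and both were 2.72- to 3.01-fold higher in the next stage. The gelatinase granule genes remained low in the proliferating early stage, Mmp8 at 37.2 CPM in WT and 24.8 in DKO, Mmp9 at 106 and 63.4, and Retnlg at 193 and 54.9.

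The azurophil stage was not uniform in these genes. In WT the median cell had 24 Camp UMIs, with a lower decile of 0 and an upper decile of 1385. Among azurophil-stage cells thinned to 1000 UMIs each, the Spearman correlations between specific granule genes were 0.57 to 0.88 in WT (333 cells) and 0.31 to 0.90 in DKO (149 cells). Cells with one specific granule transcript thus tended to have the others. These and later correlations are across cells that share a library, and are given as descriptions.

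From the proliferating early to the immature stage the gelatinase granule genes switched on. Mmp8 went from 37.2 to 2223 CPM in WT, 59.4-fold, and from 24.8 to 3041 CPM in DKO, 122-fold. Its starting levels rested on 170 UMIs in 28 WT cells and 128 UMIs in 25 DKO cells. Retnlg went from 193 to 5646 CPM (29.2-fold) in WT and from 54.9 to 4532 CPM (82.3-fold) in DKO. Mmp9 went from 106 to 1750 CPM (16.4-fold) and from 63.4 to 1977 CPM (31.1-fold). The folds were larger in DKO, where the starting levels were lower, and the immature levels of the libraries were within 1.37-fold of each other. These 3 members were higher and Chil3 was lower by at least 2-fold in both libraries, while 10.7% of the 5973 genes tested were 2-fold higher and 18.8% lower. Chil3 fell from 8949 to 3912 CPM in WT and from 7375 to 3359 CPM in DKO, ahead of the other specific granule genes. The other 6 members stayed within 2-fold: Ltf still went up, by 1.33-fold in WT and 1.58-fold in DKO, while Camp went down by 1.55-fold and 1.68-fold. Ltf was highest in the immature stage in both libraries and Camp, Ngp and Chil3 in the proliferating early stage, while Lcn2 was highest in the proliferating early stage in WT and in the immature stage in DKO.

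From the immature to the mature stage the specific granule genes fell and Retnlg rose further. Ltf went from 10254 to 395 CPM in WT and from 11274 to 408 CPM in DKO. Camp went from 37641 to 1263 CPM and from 33603 to 1420 CPM. Chil3 had the steepest fall, from 3912 to 128 CPM in WT, 30.5-fold, and from 3359 to 52.2 CPM in DKO, 64.1-fold. Ngp fell 16.8-fold in WT and 13.7-fold in DKO. Lcn2 fell least of its group, 4.17-fold and 4.42-fold, and kept 2912 and 2167 CPM in mature cells. All 5 specific granule genes were thus at least 2-fold lower in both libraries and Retnlg was higher, where 7.88% of the 5392 genes tested were 2-fold lower and 14.7% 2-fold higher. Retnlg reached 18893 CPM in WT and 17538 CPM in DKO, 3.35-fold and 3.87-fold above the immature stage. Mmp8, Mmp9, S100a8 and S100a9 stayed within 2-fold, with S100a9 going from 139959 to 88726 CPM in WT and from 118069 to 74286 CPM in DKO. With only barcodes above the UMI threshold, which leaves 145 WT and 249 DKO mature cells, 3 members in place of 6 passed 2-fold at this step.

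**Figure D1:**
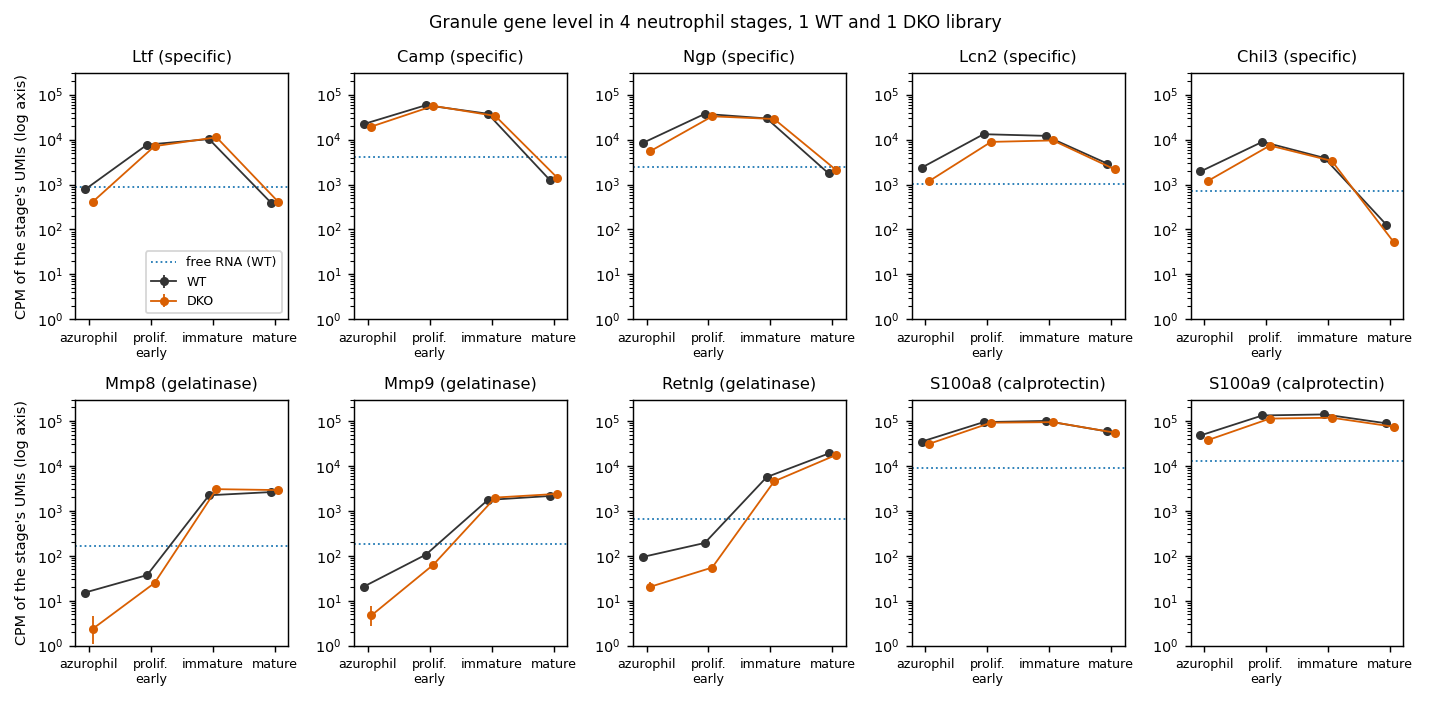
Level of each member (CPM of the stage's UMIs, log axis) in 4 neutrophil stages of the WT (black) and DKO (orange) libraries, with exact 95% Poisson intervals that are mostly smaller than the points, and the level in free RNA of the WT library as a dotted line. Specific granule genes peak in the middle stages and fall in mature cells (Camp from 37641 to 1263 CPM in WT), and gelatinase granule genes rise late (Retnlg to 18893 CPM in WT).

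The immature stage held the crossing point between the specific and the gelatinase program. Its sub-cluster 0 (608 WT and 475 DKO cells) had high Camp and low Retnlg, 49790 and 729 CPM in WT and 43193 and 381 CPM in DKO. Its sub-cluster 2 (738 and 629 cells) had less Camp and more Retnlg, 22208 and 11892 CPM in WT and 23154 and 9055 CPM in DKO. Mmp8 rose in parallel with Retnlg, from 502 to 4408 CPM in WT and from 916 to 5355 CPM in DKO. Ltf changed less between the sub-clusters, from 11794 to 8297 CPM in WT and from 12596 to 9834 CPM in DKO.

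Cell by cell the groups formed opposed blocks in this stage. Of the 15 pairs of a specific with a gelatinase granule gene, 15 had a negative Spearman correlation in WT (1290 cells, -0.68 to -0.21) and 15 in DKO (1074 cells, -0.65 to -0.20). The strongest opposition in both libraries was Camp with Retnlg, -0.68 in WT and -0.65 in DKO. Within the specific group the correlations were 0.38 to 0.77 in WT and 0.32 to 0.66 in DKO, led by Camp with Ngp in both. Within the gelatinase group they were 0.50 to 0.71 and 0.51 to 0.66. In the proliferating early stage the specific granule genes were only weakly tied to each other, with medians of 0.16 in WT and 0.14 in DKO. Nearly all cells of that stage had them, 98.2% to 100% of thinned cells with a UMI in DKO and 99.04% to 99.7% in WT.

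In mature cells these pairs were no longer opposed. Of the 15 specific with gelatinase pairs, 1 was negative in WT (1370 cells, lowest -0.02) and 0 in DKO (1709 cells, lowest 0.02). Retnlg was now tied to calprotectin, with correlations of 0.74 to S100a8 and 0.71 to S100a9 in WT and 0.69 to each in DKO, while in the immature stage they had been -0.10 to -0.02. S100a8 and S100a9 went together at every stage, from 0.71 in proliferating early to 0.96 in azurophil-stage WT cells and from 0.75 to 0.95 in DKO.

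**Figure D2:**
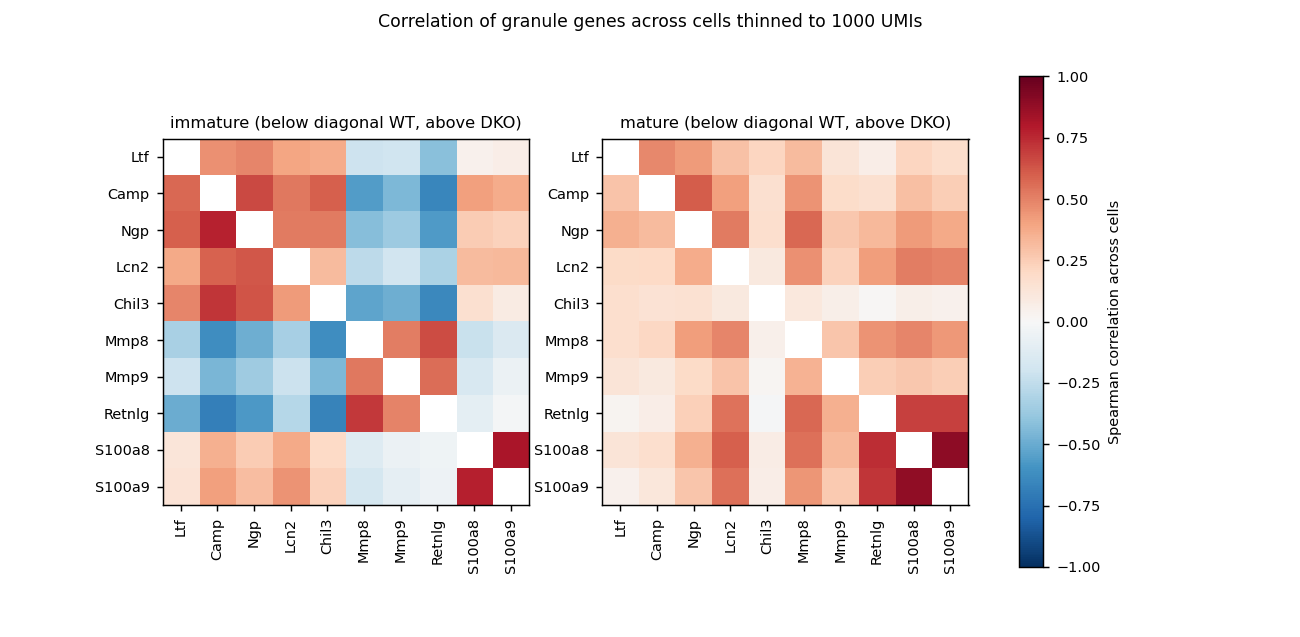
Spearman correlation between members across cells thinned to 1000 UMIs in the immature (left) and mature (right) stage, with WT below and DKO above the diagonal. In the immature stage the specific and gelatinase granule genes form 2 opposed blocks, reaching -0.68 for Camp with Retnlg in WT, and in mature cells the pairs are mostly above 0.

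The share of cells with a transcript followed the levels. Among thinned WT cells, Mmp8 was seen in 2.57% of proliferating early cells, 61.5% of immature cells and 62.0% of mature cells, against 1.21% of B cells, a class that should lack it. Retnlg was seen in 9.97%, 62.1% and 88.3%, against 3.21% of B cells. Ltf was seen in 99.04%, 91.2% and 8.25%, against 3.71% of B cells, and Chil3 in 99.7%, 76.5% and 7.30%, against 2.88%. In DKO, Chil3 was seen in 3.16% of mature cells and 0.679% of B cells. Before thinning the median depth was 2560.5 UMIs in WT mature cells and 3238 in DKO mature cells, and the 3 B clusters had medians of 2884 to 5727.5 UMIs over both libraries. The unthinned shares of cells with Chil3 were 16.2% of WT and 9.002% of DKO mature cells, and those of WT mature cells were 70.3% for Mmp8, 90.1% for Retnlg and 16.3% for Ltf. In unthinned WT B cells the shares were 7.90% for Chil3, 2.50% for Mmp8, 7.35% for Retnlg and 10.0% for Ltf.

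Genes whose levels across 15 classes and stages of both libraries (30 points) followed each group were listed by Pearson correlation of log2(CPM + 5). Nearest to the specific group were Abca13 (0.96), Cebpe (0.96), Wfdc21 (0.95), Gca (0.95) and Gm47071 (0.94). Nearest to the gelatinase group were Adam8 (0.97), Scrg1 (0.96), Fpr1 (0.96), Cxcr2 (0.95) and Trpm2 (0.95). Nearest to calprotectin were Wfdc21 (0.99), Pglyrp1 (0.97), Itgb2l (0.96), Adpgk (0.95) and Abca13 (0.95). Cebpe encodes C/EBP epsilon, Cxcr2 a chemokine receptor and Fpr1 a formyl peptide receptor. Abca13, Cebpe, Itgb2l and Cxcr2 had named the stages and Wfdc21 and Cxcr2 the lineage, so their place here is in part fixed by that choice.

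Between genotypes the members were compared within each stage. In the azurophil stage 7 members were at least 1.5-fold lower in DKO and 0 higher, where 2.52% of the 6145 genes tested were lower and 21% higher. The median log2 ratio was -0.81 over the 10 members and 0.20 over all genes tested, and 9 of the 10 members reached the 20 CPM asked of tested genes. Of the 7, Mmp8 was under 20 CPM in both libraries (15.2 and 2.36 CPM) and Mmp9 reached it in WT alone (20.7 and 4.72 CPM), while Ltf, Ngp, Lcn2, Chil3 and Retnlg were above it in both. Lcn2 stood at 2376 CPM in WT and 1193 in DKO, a log2 ratio of -0.99 (-1.04 to -0.95). Ltf stood at 779 and 410 CPM, a log2 ratio of -0.92 (-1.01 to -0.84). Chil3 (-0.70) and Ngp (-0.61) were past the fold too, while Camp (-0.19), S100a8 (-0.17) and S100a9 (-0.35) were not. Ngp was the member just inside the fold and S100a9 the one just outside it. These sums rest on a part of the cells. The median cell had 2 Lcn2 UMIs in WT and 2.5 in DKO. It had 2 Ngp, 2 Chil3 and 0 Ltf UMIs in both libraries. The 5 highest cells held 15.8% of the Lcn2 UMIs in WT and 25.4% in DKO, and 20.4% and 54.8% of the Ltf UMIs.

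The 3 gelatinase granule genes of that stage had the largest ratios on few molecules in few cells. Mmp8 had 97 UMIs in 26 WT cells and 9 UMIs in 5 DKO cells, Mmp9 had 132 UMIs in 35 cells and 18 in 5, and Retnlg had 601 UMIs in 93 cells and 78 in 44. The 5 highest WT cells held 71.1% of the Mmp8, 49.2% of the Mmp9 and 72.4% of the Retnlg UMIs. Free RNA could bring up to 7.999%, 6.30% and 5.09% of these WT UMIs. With predicted doublets kept and cells clustered again, the log2 ratio was 0.96 for Mmp8 and 0.50 for Mmp9 in place of -2.55 and -2.07, so these ratios turned direction with that choice.

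In the proliferating early stage 2 members were past 1.5-fold, both lower in DKO, against 1.59% of the 5470 genes tested that were lower and 9.12% higher. Retnlg stood at 193 CPM in WT and 54.9 in DKO, a log2 ratio of -1.81 (-2.01 to -1.62), and Mmp9 at 106 and 63.4 CPM, -0.75 (-0.95 to -0.54). The 5 highest cells held 44.0% of the 882 Retnlg UMIs in WT and 39.2% of the 283 in DKO. For Mmp9 they held 21.0% of 486 and 26.6% of 327. With early cells taken instead as those with an Fcnb UMI (851 WT and 682 DKO cells), Mmp9 stood at 261 CPM in both, a log2 ratio of -0.0022, and 0 members were past the fold, Ltf and Retnlg not being counted there. Mmp8 (-0.58) and Lcn2 (-0.57) lay just outside the fold. Mmp8 had UMIs in only 28 WT and 25 DKO cells, and the 5 highest held 52.9% and 82.8% of them. With totals taken without the members, or with median-ratio scaling, 4 members were past it in place of 2. The other specific granule genes ranged from -0.28 for Chil3 to -0.05 for Camp.

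In the immature stage 0 of the 10 members were past 1.5-fold, against 3.75% of the 4823 genes tested higher and 2.34% lower. The largest ratios in each direction were those of Mmp8, at 2223 CPM in WT and 3041 in DKO, a log2 ratio of 0.45 (0.42 to 0.48), and Lcn2, at 12133 and 9589 CPM, -0.34 (-0.35 to -0.33). Ltf, at 10254 and 11274 CPM, had a log2 ratio of 0.14 with totals of all UMIs and 0.02 with median-ratio scaling. Retnlg was at 5646 and 4532 CPM, -0.32 (-0.34 to -0.30), and this direction held in both sub-clusters, -0.93 in sub-cluster 0 and -0.39 in sub-cluster 2. Mmp8 was past the fold in sub-cluster 0 alone, at 0.87. Without the mitochondrial filter the cells grouped differently, and 4 members were past the fold.

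**Figure D3:**
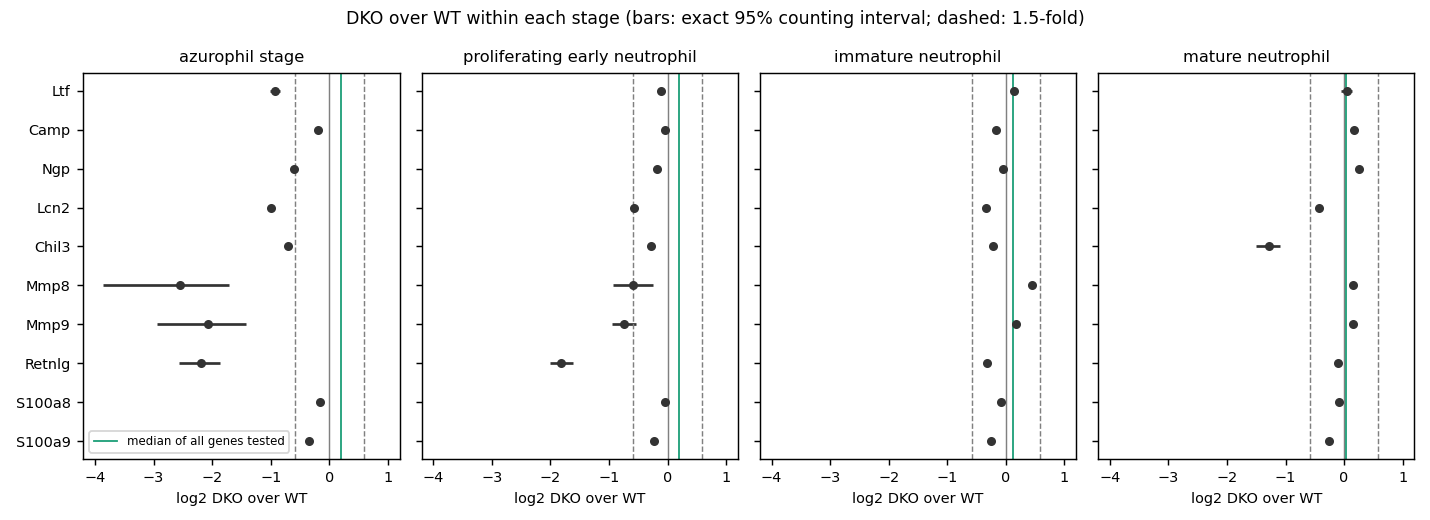
Log2 ratio of DKO over WT for each member in 4 stages, with exact conditional binomial 95% intervals (counting error only), dashed lines at 1.5-fold and a green line at the median of all genes tested. All 10 members lie below 0 in the first 2 stages, the azurophil-stage values of Mmp8 (-2.55) and Mmp9 (-2.07) turn to 0.96 and 0.50 with predicted doublets kept, and 0 members pass the fold in the immature stage.

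In the mature stage 1 member was past 1.5-fold, against 5.91% of the 4821 genes tested higher and 6.47% lower. Chil3 stood at 128 CPM in WT (515 UMIs) and 52.2 CPM in DKO (312 UMIs), a log2 ratio of -1.29 (-1.50 to -1.09). At most 16.5% of those WT UMIs could come from free RNA. With only barcodes above the UMI threshold (145 WT and 249 DKO cells) the log2 ratio of Chil3 was 0.37, the other way, and 4 members were past the fold. The count was 5 at sub-cluster resolution 0.5 and 5 without the mitochondrial filter. It was 2 with predicted doublets kept, 2 with stages set by a score per cell and 2 with cells gated on Ltf and Retnlg. Lcn2 was at -0.43, and Ltf, Camp and Ngp were at 0.05, 0.17 and 0.25. At this clustering the libraries lay mostly in different sub-clusters. Sub-clusters 4 and 5 held 642 and 677 of the 1418 WT cells, and sub-clusters 3 and 6 held 710 and 538 of the 1733 DKO cells. Part of this split changed with the setting. With predicted doublets kept, a mature cluster led by Retnlg, Cstdc4 and Prok2 held 647 WT and 692 DKO cells. Another, led by Jaml and Ccl6, still held 41 and 654.

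Within the mature sub-clusters the picture for the specific granule genes differed from the whole stage. In sub-cluster 4 (642 WT and 347 DKO cells) Camp stood at 644 CPM in WT and 109 CPM in DKO, a log2 ratio of -2.55 (-2.87 to -2.28), and Ltf at 207 and 26.5 CPM. In sub-cluster 5 (677 and 138 cells) Camp stood at 1541 and 624 CPM and Ltf at 488 and 48.2 CPM. In sub-cluster 3, with only 41 WT cells beside 710 DKO cells, Camp stood at 1575 and 129 CPM and Ltf at 454 and 30.7 CPM. In sub-cluster 6, with 58 WT and 538 DKO cells, the order was the other way, with Camp at 2692 and 3406 CPM and Ltf at 761 and 1011 CPM. Sub-cluster 6 held 7823 of the 8484 Camp UMIs of DKO mature cells and 587 of the 5088 of WT mature cells, and made up 31.0% of DKO and 4.09% of WT mature cells. A sub-cluster mostly of 1 library may be that library rather than a state of its own, and the part of this in the ratios was not tested. Chil3 was lower in DKO in each of the 4 sub-clusters, with log2 ratios from -0.83 to -2.51. These ratios rest on few UMIs, in WT and DKO 7 and 30 in sub-cluster 3, 144 and 18 in 4, 322 and 10 in 5, and 42 and 254 in 6. Ltf had 60 and 70 UMIs in sub-cluster 3, 318 and 26 in 4, and 1047 and 20 in 5. Over the whole mature stage the 5 highest WT cells held 34.3% of Ltf, 32.0% of Camp and 25.2% of Chil3 UMIs. In DKO they held 16.7%, 11.6% and 24.4%. In sub-cluster 4, 9 members were 1.5-fold lower in DKO, where 7.09% of the 5276 genes tested were lower and 15.3% higher. The counts were 5 in sub-cluster 3, where 30% of 5142 genes were lower and 9.67% higher, 5 in sub-cluster 5, where 9.93% of 4775 were lower and 12.7% higher, and 1 in sub-cluster 6, where 20.5% of 4803 were lower and 9.81% higher.

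The late genes and calprotectin differed less than Ltf and Camp within the same sub-clusters. In sub-cluster 4, though, Mmp8 (-0.65), Retnlg (-0.82) and S100a8 (-0.64) were past 1.5-fold, all lower in DKO. In sub-clusters 3, 5 and 6 Mmp8 was at -0.35, -0.22 and -0.0028, and S100a8 at -0.07, 0.0015 and 0.02. Retnlg stood at 25485 CPM in WT and 25811 CPM in DKO in sub-cluster 5, and at 9175 and 5211 CPM in sub-cluster 4. Mmp9 had log2 ratios from -0.20 to 0.06 over the 4 sub-clusters. S100a9 had ratios of -0.08 to -0.18 in sub-clusters 3, 5 and 6 and -0.89 in sub-cluster 4.

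**Figure D4:**
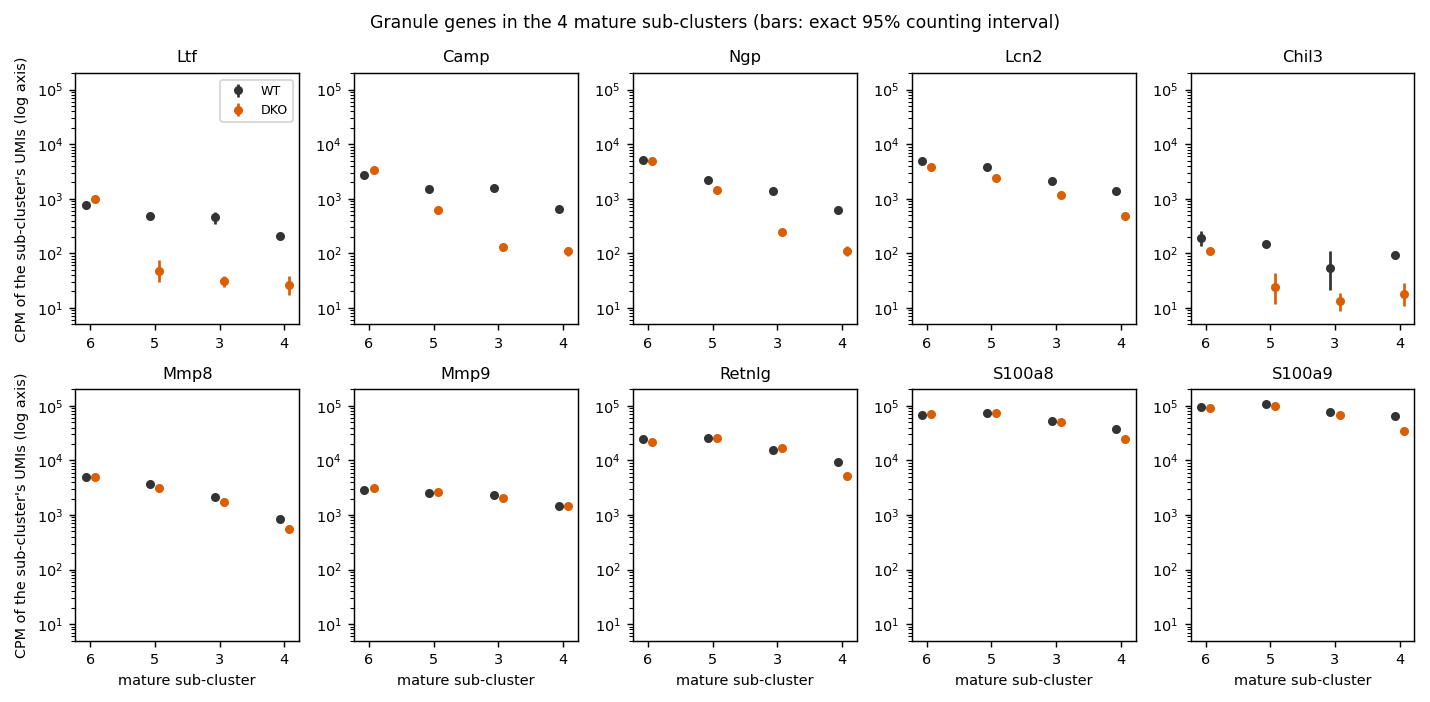
Level of each member (CPM, log axis) in mature sub-clusters 6, 5, 3 and 4 of the WT (black) and DKO (orange) libraries, with exact 95% Poisson intervals. Ltf and Camp are lower in DKO in sub-clusters 5, 3 and 4 (Camp 644 and 109 CPM in sub-cluster 4) and higher in sub-cluster 6, while Mmp9 and Retnlg lie closer together.

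S100a9 was lower in DKO at every stage by a like amount, with log2 ratios of -0.35, -0.23, -0.25 and -0.26 from the azurophil to the mature stage. Its partner S100a8 was closer to 0, at -0.17, -0.04, -0.09 and -0.09. The ratio of S100a9 to S100a8 was thus lower in DKO at each stage. Lcn2 was lower at each stage too, from -0.34 to -0.99. Median-ratio scaling moved every log2 ratio of a stage down by 0.14, 0.18, 0.12 and 0.05 in stage order, which moved Ltf in mature cells from 0.05 to -0.01 and turned no other direction of the 40. The median log2 ratio of all genes tested was 0.20, 0.19, 0.12 and 0.04.

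Mature cells made up 33.2% of WT and 47.1% of DKO cells of the neutrophil lineage, and the lineage 22.8% and 26.8% of all cells. Pooled over the 4 stages, Mmp8, Mmp9 and Retnlg were higher in DKO, with log2 ratios of 0.55, 0.39 and 0.22, and 0 of the 10 members were past 1.5-fold, where 9.36% of the 5654 genes tested were higher and 7.91% lower. With the DKO stages weighted by the WT stage mix the values were 0.33, 0.15 and -0.19, so that Retnlg changed direction.

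The other genes of the neutrophil program were followed from 3 lists. Of 30 other granule and membrane genes, 22 to 28 reached 20 CPM in a stage, and 4, 1, 1 and 1 of them were 1.5-fold higher and 3, 2, 1 and 1 lower in DKO from the azurophil to the mature stage, with medians of -0.03, -0.11, 0.05 and 0.01. Over all genes tested, 21%, 9.12%, 3.75% and 5.91% were higher and 2.52%, 1.59%, 2.34% and 6.47% lower in these stages. Olfm4, which encodes a glycoprotein of a subset of specific granules, was highest of the list in the middle stages, with 350 WT and 927 DKO UMIs in the proliferating early stage (log2 ratio 1.23) and 2022 and 4676 in the immature stage (1.24). Ifitm6, an interferon-induced transmembrane protein gene, was the lowest of the list in each stage, from -0.61 in immature to -1.67 in azurophil-stage cells. Orm1 (-0.95) and Hp (-0.64), both acute-phase protein genes, were next in the azurophil stage, where Abca13 (0.79), Slpi (0.74), a protease inhibitor, and Mgam (0.67) were highest. In mature cells Cybb, the oxidase subunit of the granule membrane, had a log2 ratio of 0.61.

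Of the azurophil granule genes, 1 of 9 tested in the azurophil stage and 1 of 7 in the proliferating early stage were 1.5-fold lower in DKO and 0 higher. In immature and mature cells each gene past the fold reached 20 CPM in the higher library alone, as Ctsc did in the azurophil stage (22.9 and 13.9 CPM), so nothing is read from those counts. In the azurophil stage itself, where they are made, Mpo (myeloperoxidase) was at 0.26, Ctsg (cathepsin G) at -0.48, Prtn3 (proteinase 3) at -0.51 and Ctsc, the processing protease, at -0.71. Prtn3 had 157 WT and 64 DKO UMIs in mature cells. Of 10 transcription factors of granulopoiesis, 10, 8, 7 and 7 were tested in stage order, and 2, 1, 1 and 0 of these were higher and 0 lower, which in the azurophil stage is near the 21% of all genes tested. Runx1 was higher in the first 3 stages, at 0.92, 0.64 and 0.71, and Klf5 was at 0.68, 0.55 and 0.49. Cebpe had ratios of -0.29, -0.07, 0.13 and 0.37 from the azurophil to the mature stage.

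The members were also abundant in free RNA. The 1125245 WT barcodes with at most 100 UMIs held 4073556 UMIs, and the members supplied 3.19% of them (exact binomial interval 3.17% to 3.20%), compared with 6.06% of the UMIs of WT cells. S100a9 reached 12727.5 CPM there, the rank 6 of all genes, S100a8 8948 CPM (rank 8), Camp 4104 CPM (rank 17) and Ngp 2466 CPM (rank 24). Mmp8 and Mmp9 stood at 166 and 178 CPM. The members' shares of their own sum in free RNA and in WT cells were 40.0% and 40.5% for S100a9 and 12.9% and 12.8% for Camp, and lay further apart for Ltf, at 2.72% and 2.09%, and Mmp9, at 0.560% and 0.356%. The DKO matrix holds no barcode with at most 100 UMIs, so free RNA was not measured in that library. With a cut at 50 UMIs the share was 4.77% and for barcodes of 10 to 100 UMIs 2.06%.

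Free RNA could bring only a small part of the members' UMIs in the neutrophil stages of WT. The largest free-RNA share was estimated from the gene lowest relative to free RNA, among genes well counted there, without counting error. It was 0.732% of the azurophil stage (Ebf1), 0.910% of the proliferating early stage (Slc25a21), 1.27% of the immature stage (Ebf1) and 2.92% of the mature stage (Iglc1). At that share free RNA would bring up to 0.138% of Camp in immature cells and 9.49% of Camp and 6.41% of Ltf in mature cells. Taking it off the WT sums changed 0 of the 40 directions, with a largest shift of 0.217 in log2 ratio. The DKO sums could not be corrected, so the part of free RNA in the ratios between genotypes was not tested.

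In several classes outside the neutrophil lineage a few cells carried most member UMIs. In WT B cells, 12 of 2518 cells had over 5% of their UMIs from members, and these 12 held 66.2% of the class's member UMIs. In WT megakaryocytes, 20 of 385 cells held 94.7%, and in WT T or NK cells 10 of 613 held 87.6%. Such cells held 13.7% in WT late erythroid cells, 34.6% in WT monocytes and 40.7% in WT early erythroid cells. Without such cells, a choice made after seeing the data, the 10 members stood at 0.0265 to 0.0557 of their free-RNA level in WT B cells and at 0.0256 to 0.0385 in WT late erythroid cells. The members were thus close to their free-RNA proportions in late erythroid cells and spread more widely in B cells. In late erythroid cells free RNA could bring up to 84.5% of Camp and 89.0% of Ngp UMIs, and in B cells of all barcodes up to 43.7% and 35.9%.

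In monocytes Chil3 and Mmp8 stood far above the other members relative to free RNA. In WT monocytes, without the 13 cells above 5%, Chil3 stood at 2.61 times and Mmp8 at 0.882 times its free-RNA level, while Camp and Ngp stood at 0.0191 and 0.0195. Chil3 had 19655 UMIs in WT and 3041 in DKO monocytes (1893 and 438 CPM), a log2 ratio of -2.11 (-2.17 to -2.06), and the ratio was -2.11 without those cells too. Free RNA could bring up to 0.971% of the WT Chil3 UMIs. In the monocytic cells next to the neutrophil lineage Chil3 was at 393 and 193 CPM, -1.03. Chil3 was thus past 1.5-fold in monocytes, in the monocytic cells and in the azurophil and mature neutrophil stages, and at -0.28 and -0.22 in the proliferating early and immature stages. All 10 members were 1.5-fold lower in DKO monocytes, where 2.11% of the 6650 genes tested were lower and 4.33% higher, and in the monocytic cells 5 were, against 1.51% lower and 4.12% higher of 6705. In WT monocytes free RNA could bring up to 38.5% of Camp, 37.4% of Ngp, 35.4% of Ltf and 20.5% of S100a9 UMIs, but 2.74% of Mmp8. Its part in these ratios was not tested, as free RNA was not measured in DKO.

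**Figure D5:**
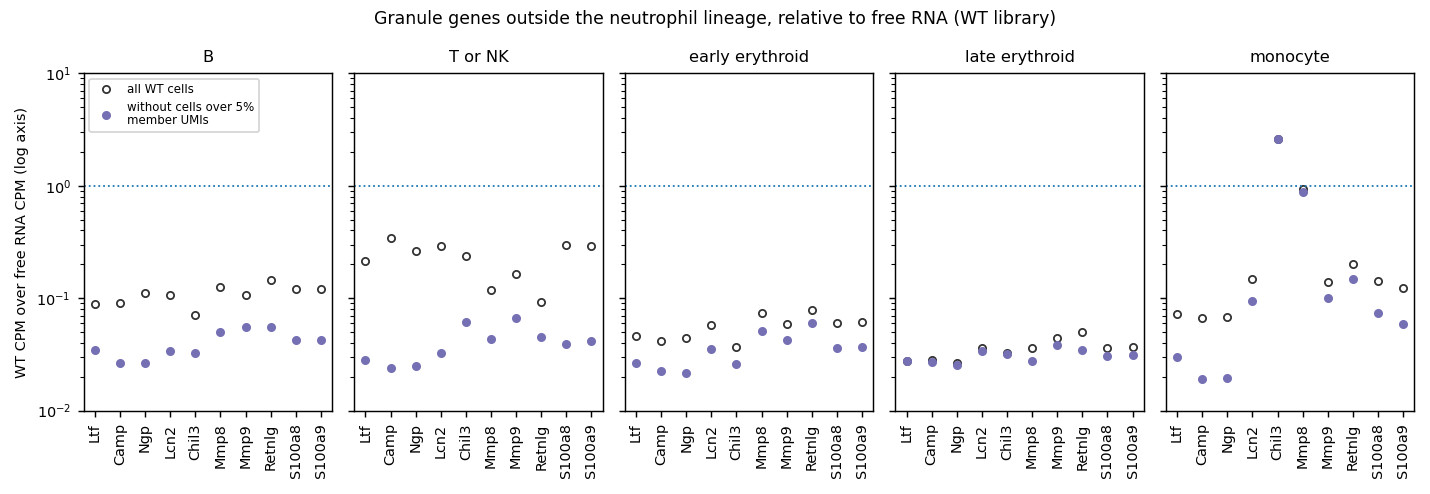
Level of each member in WT cells of 5 classes outside the neutrophil lineage, divided by its level in WT free RNA (log axis), for all cells (open) and without cells that have over 5% member UMIs (filled). Filled points lie between 0.0216 and 0.0671 in B, T or NK and erythroid cells, and Chil3 and Mmp8 of monocytes lie far above the other members at 2.61 and 0.882.

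In each of the classes below, more members were 1.5-fold lower than higher in DKO. In late erythroid cells 10 members were 1.5-fold lower, in a class where 30% of the 813 genes tested were lower and 0.615% higher, with S100a9 at 471 CPM in WT and 195 CPM in DKO (log2 ratio -1.27), and with totals that leave out hemoglobin 8 were. In B cells 7 members were 1.5-fold lower, against 1.84% of the 6563 genes tested lower and 2.3% higher, from -2.38 for Camp to -1.44 for S100a8, while Mmp8, Mmp9 and Retnlg were at -0.33, -0.16 and -0.17. Without the cells above 5% the B cell ratios were -1.03 for Camp and -1.30 for S100a9 and 8 members were past the fold. In T or NK cells 7 members were lower, against 7.16% of genes lower and 11.2% higher, and in early erythroid cells 8 were, against 3.65% and 0.781%. All 10 were lower in macrophages, against 24% of genes lower and 5.42% higher, and in megakaryocytes, against 13.5% and 17.4%. Basophils or mast cells had 5 lower members, against 2.72% of genes lower and 3.98% higher. Dendritic cells had 4 members lower and 3 higher, Mmp8, Mmp9 and Retnlg, against 4.8% and 11.6%, and stromal or endothelial cells had 7 lower and the same 3 higher, against 12.5% and 23.7%. Some of these counts include members under 20 CPM or above it in the higher library alone, so less can be read from them: in late erythroid cells Mmp8 and Mmp9 were under 20 CPM in both libraries and Ltf, Lcn2, Chil3 and Retnlg reached it in WT only, in megakaryocytes Chil3, Mmp8, Mmp9 and Retnlg reached it in WT only, and in dendritic cells Mmp8, Mmp9 and Retnlg reached it in DKO only. Without the cells above 5%, fewer members were lower in T or NK cells (5 lower, 2 higher), early erythroid cells (6 lower), macrophages (8) and megakaryocytes (6). Basophils or mast cells then had 3 lower and 1 higher, dendritic cells 5 and 2, and stromal or endothelial cells 7 and 2. Late erythroid cells still had 10 lower. In WT macrophages 6 of 669 cells had held 86.8% of the member UMIs. The median B cell had 3 member UMIs in WT and 2 in DKO. The part of free RNA in these differences between libraries was not tested, as the DKO library has no low barcodes.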

How the data were processed

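Bone marrow cells of 1 WT and 1 DKO mouse were profiled by single-cell RNA sequencing. The authors made the deposited matrices of raw UMI counts with Cell Ranger 7.1.0 per the file headers, and the submitters' processing notes name mm10. The WT matrix holds all barcodes and the DKO matrix called cells of at least 500 UMIs. In the WT matrix, a barcode counted as a cell when its UMIs passed the 99 percentile, divided by 10, of the 3000 deepest barcodes. Those between 500 UMIs and that threshold were compared by a multinomial test with the summed free RNA, that is, barcodes of up to 100 UMIs (false discovery rate 0.01 after 10000 draws), which gave 19248 barcodes beside 14142 in the DKO matrix.

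Cells with over 20% mitochondrial UMIs (174 WT and 215 DKO) were left out. Scrublet, run in scanpy 1.11.5, set a threshold of 0.226 in DKO and 0.628 in WT, where it marked 0 cells. The DKO value was used for both and removed 348 WT and 208 DKO cells. Counts scaled to 10000 per cell were log-transformed, and 2000 variable genes without the 10 members, Ddx41 and Cgas, 30 components and 15 neighbors gave Leiden clusters, then sub-clusters of the neutrophil lineage at resolution 1. Clusters were named from fixed markers, and at least 3 detected markers were asked of each.

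UMIs were summed per stage and library and divided by the total (CPM). The log2 ratio of DKO over WT had 1 count added, with an exact conditional binomial 95% interval. With 1 library per genotype no test was possible. A gene was counted as past the fold at 1.5-fold between genotypes, or at 2-fold in both libraries between stages, and genes tested had at least 20 CPM in a library. Levels have exact Poisson and shares exact Clopper-Pearson intervals. Per-cell shares and correlations used cells thinned to 1000 UMIs. The scripts were tested on simulated data.

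The members and lists were chosen with earlier results of these data known. Named genes were the 10 members, Ddx41 and Cgas, the 3 largest increases and decreases of each list and stage, and the 5 genes nearest each group of members among genes of at least 100 CPM. Promoters came from RefSeq (GRCm38.p6), where 9 of the 10 members matched, and gene positions from GENCODE M21. Alternatives covered the cells kept, doublets, scaling, the fold, stage definitions, depth and free RNA.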

Additional observations from a re-analysis of the deposited data

Results flagged for a closer look

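Several members had ratios of DKO over WT that pointed in opposite directions in neighbouring stages, with counting intervals that did not include 0. These differences were not tested, as each genotype is 1 library. The log2 ratio of Ltf was -0.11 in the proliferating early stage and 0.14 in the immature stage. Camp was at -0.16 in the immature and 0.17 in the mature stage, and Ngp at -0.042 and 0.25. Mmp8 was at -0.58 in the proliferating early and 0.45 in the immature stage, and Mmp9 at -0.75 and 0.18. With median-ratio scaling Ltf was at -0.29 in the proliferating early and 0.02 in the immature stage. A split of cells by Ltf UMIs could not check its direction. For Mmp8, Mmp9, Camp and Ngp the values above depended on how stages were drawn. With later-stage cells split by Fcnb, Ltf and Retnlg UMIs instead of by cluster, early Mmp8 was at 0.28 and Mmp9 at -0.0022, and mature Camp was at -0.058 and Ngp at -0.14, so the direction no longer turned for Mmp8, Camp and Ngp, and for Mmp9 the early interval included 0. Within mature sub-clusters 3, 4 and 5 Camp was at -3.61, -2.55 and -1.30, and only in sub-cluster 6 was it above 0, at 0.34.

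The step between stages also differed in direction between the libraries for 2 members. Lcn2 went from the proliferating early to the immature stage by a log2 ratio of -0.12 in WT and 0.11 in DKO. Mmp8 went from the immature to the mature stage by 0.24 in WT and -0.070 in DKO. Neither difference was tested.

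Members were also present in WT barcodes outside the cells and free RNA compared above. The 49107 WT barcodes with more UMIs than the free-RNA limit of 100 and fewer than the cell minimum of 500 held 7733416 UMIs, and 1.51% of these came from the 10 members.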

How the results depend on the processing

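No paired analysis was possible because each genotype is 1 library. The counts of members past 1.5-fold between genotypes were 7, 2, 0 and 1 from the azurophil to the mature stage. With only barcodes above the UMI threshold they were 1 in the proliferating early, 1 in the immature and 4 in the mature stage, and the log2 ratio of Chil3 in mature cells was 0.37. With doublets kept the mature count was 2, and Mmp8 and Mmp9 of the azurophil stage were at 0.96 and 0.50. Without the mitochondrial filter the immature count was 4 and the mature count 5. Totals without members gave 4 in the proliferating early stage, as did median-ratio scaling. A 2-fold limit gave 3 in the azurophil and 1 in the proliferating early stage. Stages from per-cell scores gave 4 in the proliferating early and 2 in the mature stage. The gate on Ltf and Retnlg, which leaves both genes out and has no azurophil stage, gave 0, 1 and 2 in the 3 later stages. Sub-cluster resolution 0.5 gave 3, 1, 1 and 5. Chosen after seeing the data, mature sub-clusters 3, 4 and 5 alone gave 5, 9 and 5. Between the immature and mature stages, 3 members in place of 6 were past 2-fold with barcodes above the UMI threshold. The free-RNA share of 3.19% was 4.77% with at most 50 UMIs and 2.06% with 10 to 100. In B cells above the UMI threshold 2 members in place of 7 were past the fold, and macrophages gave no value there. The cells of each stage were redrawn under the cell, doublet, mitochondrial and resolution settings, and the cause of the changes was not tested. The other 65 counts and shares were within 1.5 times. Among them are the counts without a minimum CPM, which could not change because members are counted with or without it. The 10 ratios past the fold kept their direction under the settings run over all stages, except 9 with barcodes above the UMI threshold and 8 with doublets kept. Without a minimum CPM, 8.50% of the 16369 azurophil-stage genes were lower in place of 2.52%.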

Other observations

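The unnamed sub-clusters also carried members. Sub-cluster 1, led by Nup210l and Orm1 (149 WT and 92 DKO cells), had Camp at 66538 CPM in WT and 58243 in DKO and Mmp8 at 20.7 and 85.5 CPM. In sub-cluster 8, led by hemoglobin genes (190 and 126 cells), the members supplied 18.7% of WT and 12.1% of DKO UMIs, and in sub-cluster 9, led by C1q genes (67 and 54 cells), 31.8% and 26.5%.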
